A study of Mus musculus with 19 samples.

Results

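The genes described here are Ccnb1ip1, Gm5148, Rps18-ps6, Gm45234 and Gm42733, 5 of the 25639 genes measured in tumour-infiltrating T cells of 3 mouse lines. They were chosen by name because their levels differed between the lines in earlier results from these same libraries. Their levels by genotype are therefore given as a description, with no test. RNA was sequenced from CD8 and from CD4 T cells sorted out of liver metastases on day 30 after Venus-AKTPM/LOH colorectal cancer cells had been injected into the spleen. Vav1CreTet2KO mice carry a Cre recombinase driven in blood cells at large, and Cd4CreTet2KO mice carry one driven in T cells. Tet2fl/fl mice are the controls and carry the floxed Tet2 allele that all 3 lines share. The CD8 libraries numbered 3, 4 and 3 for Vav1CreTet2KO, Cd4CreTet2KO and Tet2fl/fl, and the CD4 libraries numbered 3 for each genotype. Of the 11 animals, 8 gave both cell types. The labels give neither age, sex nor strain background, so the effect of Tet2 loss and any other difference between the lines cannot be told apart.

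Ccnb1ip1 encodes HEI10, a ubiquitin ligase that binds cyclin B and that mouse germ cells need to turn recombination sites into crossovers in meiosis. The other genes carry sequence of other loci. Genes of ribosomal proteins have many processed copies, made when a spliced messenger RNA was copied back into the genome without its introns. A short read from a recent copy can match both the copy and its parent gene, so levels of such copies depend on how reads with several matches were assigned. Overlapping genes on opposite strands can be told apart only where counting used the strand. The libraries were made with a stranded kit, but no source used here states the strand setting of the counting or its treatment of reads with several matches.

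All 5 genes lie on the minus strand, each on another chromosome. In GENCODE vM21 on GRCm38, Ccnb1ip1 spans chr14:50789248-50807732, Gm5148 spans chr3:37714190-37724490 and Rps18-ps6 spans chr13:97760072-97760632. Gm45234 spans chr6:124739189-124756021 and Gm42733 spans chr5:73308059-73308577. The positions in the deposited tables are those of another assembly and were used only to find neighbouring genes. The annotation does not make the 4 genes other than Ccnb1ip1 a class of pseudogenes. GENCODE types Gm5148, Rps18-ps6 and Gm45234 as protein coding and Gm42733 as a transcript to be experimentally tested, and RefSeq types Rps18-ps6 alone as a pseudogene.

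The sequences shown here, from GENCODE vM21 transcripts, show how much of each gene is shared. Rps18-ps6 is a copy of Rps18, which encodes a protein of the small ribosomal subunit. Over 545 aligned bases the pair was 99.1% identical, with 5 mismatches. Coding bases 181 to 440 of Rps18, which hold the 4 differences within the coding sequence, and the matching bases of Rps18-ps6 follow, with the bases that differ in capitals.
Rps18: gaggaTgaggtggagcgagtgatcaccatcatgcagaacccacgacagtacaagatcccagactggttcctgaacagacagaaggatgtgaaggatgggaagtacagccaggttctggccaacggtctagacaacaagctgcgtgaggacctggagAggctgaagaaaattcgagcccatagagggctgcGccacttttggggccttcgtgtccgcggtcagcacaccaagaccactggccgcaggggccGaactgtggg
Rps18-ps6: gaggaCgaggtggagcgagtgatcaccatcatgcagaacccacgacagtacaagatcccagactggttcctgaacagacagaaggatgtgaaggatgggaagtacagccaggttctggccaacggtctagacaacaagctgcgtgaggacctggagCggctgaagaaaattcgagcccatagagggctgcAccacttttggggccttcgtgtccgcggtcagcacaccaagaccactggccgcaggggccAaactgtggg
Counted from the first coding base of Rps18, with the base of Rps18 first, the differences are T186C, A337C, G371A and G431A. Of the 50-base words of Rps18-ps6, 63.3% occur on the same strand of another gene, and 96.5% occur in another gene on either strand. The opposite strand carries the long noncoding RNA Gm26619, which covers 541 of its 561 bases.

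Gm5148 holds a copy of Rps23, another protein of the small subunit, in reverse. The match was 100% over 427 bases on the opposite strand, where GENCODE places the processed pseudogene Rps23-ps1. The first 60 coding bases of Rps23 and the matching stretch of Gm5148 are shown to make the reversal visible, with the start codon of Rps23 and its reverse complement in capitals.
Rps23: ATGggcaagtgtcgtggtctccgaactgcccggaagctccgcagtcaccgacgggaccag
Gm5148: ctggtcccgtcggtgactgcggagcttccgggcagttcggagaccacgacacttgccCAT
Gm5148 also matches the protein-coding gene C330021F23Rik on the same strand, at 99.5% over 420 bases. Of the 50-base words of Gm5148, 25.4% occur in another gene on either strand and 20.5% on the same strand, where counting by strand does not separate them.

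Ccnb1ip1 shares sequence with an abundant noncoding RNA. A stretch of 233 of its 1883 exon bases is identical to Rpph1, the RNA subunit of RNase P, which trims the precursors of transfer RNAs, and lies on the same strand. The first 30 bases of that stretch, shared by both genes, are these.
Rpph1 and Ccnb1ip1: gtgcgtgtcactcttcggcccctgggaagg
Rpph1 has no row in the tables used here, so its reads and those of Ccnb1ip1 in this stretch cannot be told apart. Gm45234 is a read-through transcript of 4359 bases across Atn1, which encodes the transcriptional corepressor atrophin 1, and Grcc10. Atn1 shares 88.9% of its exon bases and Grcc10 shares 9.22%, both on the same strand. Gm42733 lies, over all 519 of its bases, inside an exon of Ociad1 on the opposite strand.

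Reads on genes ranged from 8189300 to 20327809 in CD8 libraries and from 707866 to 17575534 in CD4 libraries. The shallowest was CD4 Vav1CreTet2KO replicate 1. Levels are RPKM, that is, reads divided by the length of the gene and by the depth of the library. The CD8 and CD4 tables were scaled separately, and no test was made across them. Tet2 averaged 4.93 ± 1.76 RPKM in CD8 Vav1CreTet2KO cells (SD, n = 3), 5.002 ± 1.90 RPKM in CD8 Cd4CreTet2KO cells (SD, n = 4) and 7.42 ± 0.773 RPKM in CD8 Tet2fl/fl cells (SD, n = 3). In CD4 cells it averaged 4.24 ± 1.44, 5.54 ± 1.51 and 5.04 ± 1.73 RPKM in the same order (SD, n = 3 each). The gene was not called different in any comparison, and its level over all exons does not show whether the floxed exon was lost. Cd8a and Cd4 followed the labels. Cd8a ranged from 99.9 to 229.8 RPKM in CD8 libraries and from 0 to 0.792 RPKM in CD4 libraries. Cd4 ranged from 0 to 7.68 RPKM and from 39.5 to 122.4 RPKM in the same order. Cd40lg, also examined as a marker of CD4 T cells, overlapped between the sorts. It ranged from 0 to 12.5 RPKM in CD8 libraries and from 5.66 to 56.2 RPKM in CD4 libraries. Its CD8 Vav1CreTet2KO libraries had 7.82 to 12.5 RPKM. The Y-linked genes Ddx3y, Eif2s3y, Kdm5d and Uty were above 0 in every library. Ddx3y ranged from 6.49 to 12.9 RPKM in CD8 and from 8.67 to 16.1 RPKM in CD4 libraries, so every library held RNA of male cells. Xist, the female marker, gave no values, so added RNA of female cells was not examined.

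Ccnb1ip1 was highest in Vav1CreTet2KO, lower in Cd4CreTet2KO and lowest in Tet2fl/fl mice, in CD8 and in CD4 cells. CD8 cells had 503.8, 131.8 and 168.6 RPKM in Vav1CreTet2KO mice, 124.2, 103.5, 72.9 and 50.6 RPKM in Cd4CreTet2KO mice, and 18.2, 13.9 and 41.8 RPKM in Tet2fl/fl mice. CD4 cells had 266.4, 332.9 and 148.6 RPKM in Vav1CreTet2KO mice, 92.0, 56.9 and 62.8 RPKM in Cd4CreTet2KO mice, and 34.02, 32.6 and 48.3 RPKM in Tet2fl/fl mice. No library of one genotype overlapped with those of the next in either cell type. The gaps between neighbouring groups were narrow in places, as between 131.8 RPKM in the lowest Vav1CreTet2KO library and 124.2 RPKM in the highest Cd4CreTet2KO library of CD8 cells.

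**Figure D1:**
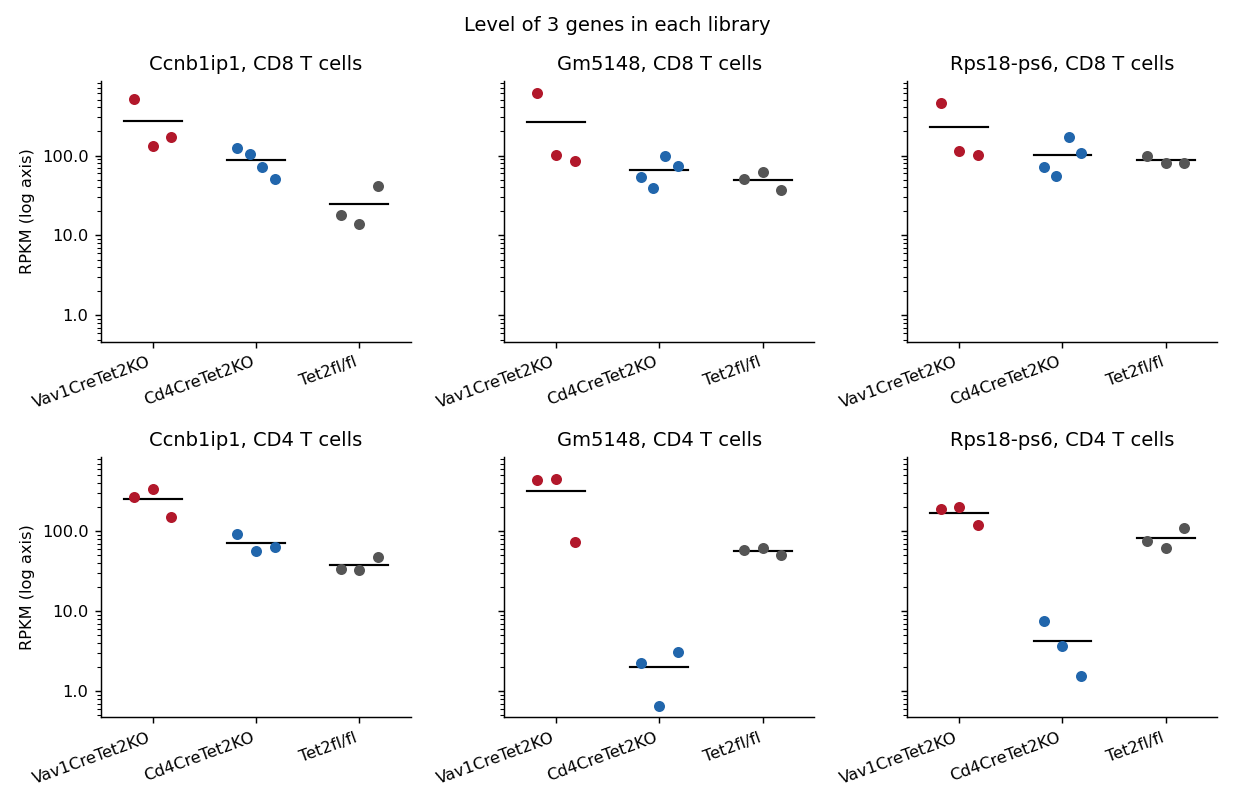
RPKM of Ccnb1ip1, Gm5148 and Rps18-ps6 on a log axis in CD8 libraries (top) and CD4 libraries (bottom), with 1 point per library and a bar at the mean of each genotype. Ccnb1ip1 steps down from Vav1CreTet2KO to Tet2fl/fl in both rows, and the 3 CD4 Cd4CreTet2KO libraries of Gm5148 lie between 0.660 and 3.09 RPKM.

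On the log2(RPKM + 1) scale, Ccnb1ip1 was higher in Vav1CreTet2KO than in Tet2fl/fl cells by 3.29 (SE 0.75) in CD8 cells and by 2.62 (SE 0.39) in CD4 cells. Between Cd4CreTet2KO and Tet2fl/fl cells the difference was 1.87 (SE 0.54) in CD8 cells and 0.86 (SE 0.27) in CD4 cells. Between Vav1CreTet2KO and Cd4CreTet2KO cells it was 1.42 (SE 0.66) in CD8 cells and 1.76 (SE 0.40) in CD4 cells. Of 10117 genes tested in both cell types, 1 gene, Ccnb1ip1, had every Vav1CreTet2KO library above every Cd4CreTet2KO library and these above every Tet2fl/fl library in both (0.00988%). It was chosen for its levels in these libraries, so this count is a description. The order also depended on the scaling. With RPKM divided by size factors of the libraries, the CD8 Vav1CreTet2KO and Cd4CreTet2KO libraries of Ccnb1ip1 overlapped.

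Genes that act with Ccnb1ip1 in meiosis were mostly near 0. Of 17 genes of meiotic crossover formation, 16 were in the tables. Rnf212, another ligase needed for crossovers, and Sycp1, a core protein of the synaptonemal complex, were at 0 in all 10 CD8 and all 9 CD4 libraries. Msh4, which with Msh5 stabilises crossover intermediates, reached at most 0.0366 RPKM in CD8 libraries and 0.235 RPKM in CD4 libraries. In none of the 6 genotype comparisons was a gene of this list called at an adjusted p of 0.05 by limma in CD8 cells (5 tested) or by edgeR in CD4 cells (7 tested), and 0 had an unadjusted p under 0.05. edgeR on recovered reads in CD8 cells, and DESeq2 and limma in CD4 cells, also called 0.

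Of 12 genes of cyclin B and entry into mitosis, 11 were tested and 0 were called in the same 6 comparisons. Unadjusted p-values under 0.05 numbered 3 for CD8 Vav1CreTet2KO against Tet2fl/fl, at most 1 elsewhere, and the other tools called 0. The median log2 difference of the list between Vav1CreTet2KO and Tet2fl/fl was -0.33 in CD8 cells, beside -0.11 for all genes, and 0.86 in CD4 cells, beside -0.16 for all genes. Ccnb1, cyclin B1, ranged from 0.830 to 5.46 RPKM in CD8 libraries and from 0.187 to 6.96 RPKM in CD4 libraries. The RPKM of Ccnb1ip1 therefore lay above that of cyclin B1 in every library of both cell types. It can include reads of Rpph1 in the shared stretch, so this does not rank the messenger RNAs of these genes.

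The genes whose pattern was most like that of Ccnb1ip1 were H2-Ab1, Klrk1 and Tyrobp. Likeness was the lower of 2 Pearson correlations of log2(RPKM + 1), over 10 CD8 and over 9 CD4 libraries, among 9494 genes, and these libraries share animals, depth and genotype. H2-Ab1, a chain of the class II molecule that presents antigen, had r = 0.93 in CD8 and 0.94 in CD4 libraries. Klrk1, the activating receptor NKG2D, had 0.93 in both, and Tyrobp, an adaptor through which several receptors of natural killer and myeloid cells signal, had 0.92 and 0.94. H2-Ab1 was also 1 of 4 markers of dendritic cells examined as a sign of other cells in the sort, with Flt3, Itgax and Clec9a. The summed level of the 4 markers in CD8 libraries was 1299, 478 and 318 RPKM in Vav1CreTet2KO mice, 903, 381, 117 and 240.4 RPKM in Cd4CreTet2KO mice, and 25.2, 15.1 and 128 RPKM in Tet2fl/fl mice. In CD4 libraries it was 236.5, 321 and 101 RPKM in Vav1CreTet2KO mice, 57.2, 18.6 and 47.5 RPKM in Cd4CreTet2KO mice, and 32.7, 23.1 and 49.8 RPKM in Tet2fl/fl mice. H2-Ab1 made up most of this sum in every library, as 1256 of 1299 RPKM in CD8 Vav1CreTet2KO replicate 1. The sum therefore largely repeated the likeness of H2-Ab1 given above. The library with the highest marker sum was also the one with the highest Ccnb1ip1 in each cell type, and libraries of 1 genotype with more of one mostly had more of the other. The marker sums of Cd4CreTet2KO and Tet2fl/fl libraries overlapped in both cell types, and those of Vav1CreTet2KO and Cd4CreTet2KO libraries overlapped in CD8 cells, where levels of Ccnb1ip1 did not. None of the 4 markers was at 0 throughout a group. The part of such cells in the Ccnb1ip1 levels was not tested. In bulk samples, fewer cells of a type and less RNA per cell cannot be told apart.

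**Figure D2:**
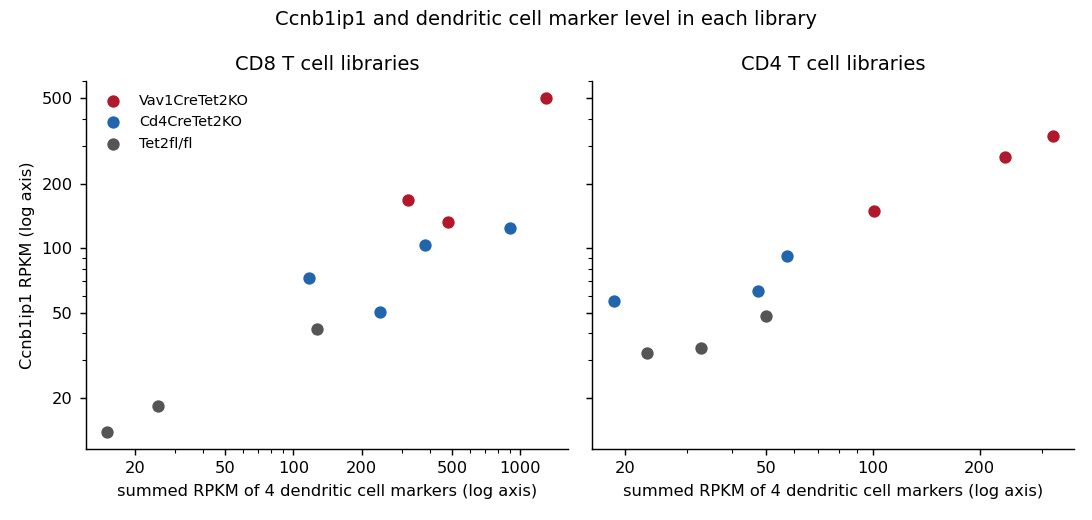
Ccnb1ip1 RPKM against the summed RPKM of Flt3, Itgax, H2-Ab1 and Clec9a, both on log axes, with 1 point per library, CD8 left and CD4 right. Vav1CreTet2KO libraries lie at the upper right of both panels, and the CD8 Cd4CreTet2KO library with a marker sum of 903 RPKM had 124.2 RPKM of Ccnb1ip1. H2-Ab1 makes up most of the sum in every library.

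Sums of markers of other cells were lower than the dendritic cell sums, which were mostly H2-Ab1. The dendritic cell markers other than H2-Ab1 were not higher throughout. In CD8 Cd4CreTet2KO libraries Flt3, Itgax and Clec9a averaged 13.3, 17.8 and 9.81 RPKM, and the macrophage marker Lyz2 66.3 RPKM. In CD8 Vav1CreTet2KO libraries they averaged 14.3, 14.6 and 11.8 RPKM, and Lyz2 5.58 RPKM. Macrophage markers (Lyz2, Csf1r, Adgre1 and C1qa) summed to between 4.23 and 10.6 RPKM in CD8 Vav1CreTet2KO libraries, between 2.46 and 198 RPKM in CD8 Cd4CreTet2KO libraries and between 3.02 and 12.4 RPKM in CD8 Tet2fl/fl libraries. In CD4 cells the sums ran from 10.9 to 38.3, from 1.04 to 4.10 and from 0.469 to 45.2 RPKM in the same order. B cell markers stayed at or under 8.396 RPKM, hepatocyte markers at or under 12.3 RPKM, tumour epithelium markers at or under 8.46 RPKM and red cell markers at or under 26.3 RPKM.

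Gm5148 was near off in one group alone, CD4 cells of Cd4CreTet2KO mice. CD4 cells had 440.5, 446.3 and 74.0 RPKM in Vav1CreTet2KO mice, 2.23, 0.660 and 3.09 RPKM in Cd4CreTet2KO mice, and 58.3, 62.1 and 50.3 RPKM in Tet2fl/fl mice. The 3 low libraries were not shallow, with 123, 44 and 176 reads on the gene from 15543888 to 17575534 reads on genes. CD8 cells had 607.1, 100.1 and 85.1 RPKM in Vav1CreTet2KO mice, 53.5, 39.7, 97.8 and 73.4 RPKM in Cd4CreTet2KO mice, and 50.5, 61.9 and 37.1 RPKM in Tet2fl/fl mice. In CD8 cells the Cd4CreTet2KO libraries overlapped with both other genotypes, and Vav1CreTet2KO replicate 1 stood far above the rest. The mean in CD4 Cd4CreTet2KO cells was 0.0350 times that in Tet2fl/fl cells, and the log2(RPKM + 1) difference was -4.37 (SE 0.40). In CD8 cells the same difference was 0.35 (SE 0.35).

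Rps18-ps6 showed the same layout. CD4 cells had 187.1, 202.5 and 119.9 RPKM in Vav1CreTet2KO mice, 7.54, 3.69 and 1.54 RPKM in Cd4CreTet2KO mice, and 74.7, 60.9 and 110.6 RPKM in Tet2fl/fl mice. CD8 cells had 459.1, 112.4 and 101.5 RPKM in Vav1CreTet2KO mice, 72.8, 55.2, 169.2 and 108.9 RPKM in Cd4CreTet2KO mice, and 98.5, 81.4 and 81.1 RPKM in Tet2fl/fl mice. The 3 CD4 Cd4CreTet2KO libraries lay below every other library, and the CD8 Cd4CreTet2KO libraries lay on both sides of the Tet2fl/fl range. The log2(RPKM + 1) difference between Cd4CreTet2KO and Tet2fl/fl cells was -4.11 (SE 0.56) in CD4 cells and 0.10 (SE 0.36) in CD8 cells. The CD8 Vav1CreTet2KO means of both genes rested on replicate 1: without it, the difference from Tet2fl/fl was 0.91 in place of 1.81 for Gm5148 and 0.30 in place of 1.00 for Rps18-ps6.

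The low CD4 values and the ordinary CD8 values came partly from the same mice. For 2 Cd4CreTet2KO animals both cell types were sequenced. Gm5148 had 97.8 RPKM in CD8 cells and 2.23 RPKM in CD4 cells of one, and 73.4 RPKM in CD8 cells and 3.09 RPKM in CD4 cells of the other. Rps18-ps6 had 169.2 and 7.54 RPKM in the first and 108.9 and 1.54 RPKM in the second. Ccnb1ip1 in the same 2 animals had 72.9 RPKM in CD8 and 92.0 RPKM in CD4 cells, and 50.6 RPKM in CD8 and 62.8 RPKM in CD4 cells. These levels are set across tables that were scaled separately, and the ratio of CD8 to CD4 was 43.9 and 23.7 for Gm5148, 22.4 and 70.5 for Rps18-ps6, and 0.792 and 0.805 for Ccnb1ip1. In the other 6 animals with both cell types, that ratio lay between 0.224 and 1.38 for Gm5148.

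The parent genes were not called different where their copies were near off. Rps18 in CD4 cells had 489.2, 468.9 and 385.8 RPKM in Vav1CreTet2KO mice, 383.6, 201.9 and 235.9 RPKM in Cd4CreTet2KO mice, and 284.4, 230.5 and 292.6 RPKM in Tet2fl/fl mice. The edgeR log2 difference of Rps18 between Cd4CreTet2KO and Tet2fl/fl CD4 cells was 0.09 (SE 0.25, adjusted p = 1.00). Rps23 had 890.2, 556.3 and 525.2 RPKM in CD4 Cd4CreTet2KO libraries and 755.3, 741.5 and 781.9 RPKM in CD4 Tet2fl/fl libraries, with a log2 difference of -0.13 (SE 0.33, adjusted p = 1.00). Between Vav1CreTet2KO and Tet2fl/fl cells, Rps23 differed by 1.42 (SE 0.33) in CD4 cells, with an edgeR adjusted p of 0.15. In CD8 cells the same difference was 1.24 (SE 0.46), with a limma adjusted p of 0.188. Rps18 and Rps23 were not called in any of the 6 comparisons, nor were Atn1 and Ociad1, which overlap Gm45234 and Gm42733. The CD4 differences of Rps23 for Vav1CreTet2KO passed, however, with DESeq2, without the filter on low counts and without Vav1CreTet2KO replicate 3.

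**Figure D3:**
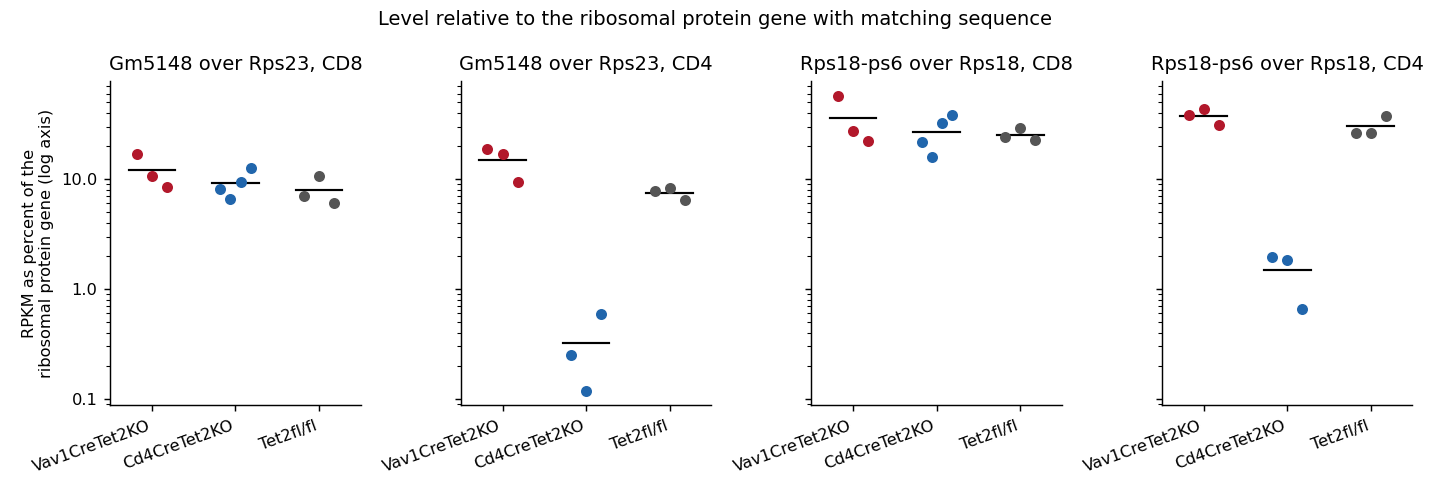
RPKM of Gm5148 as a percent of Rps23 and of Rps18-ps6 as a percent of Rps18, on a log axis, with 1 point per library and a bar at the mean. The 3 CD4 Cd4CreTet2KO libraries lie at 0.119% to 0.588% for Gm5148 and at 0.654% to 1.97% for Rps18-ps6, below every other library.

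As a percent of the parent, Gm5148 stood at 0.319% ± 0.242 of Rps23 in CD4 Cd4CreTet2KO libraries (SD, n = 3) and between 6.43% and 18.7% in the other 6 CD4 libraries. In the 10 CD8 libraries it ranged from 6.06% to 16.8%. Rps18-ps6 stood at 1.48% ± 0.721 of Rps18 in CD4 Cd4CreTet2KO libraries (SD, n = 3), between 26.3% and 43.2% in the other CD4 libraries and between 16.0% and 57.3% in CD8 libraries. Each ratio was thus in one range over 16 libraries and far below it in the remaining 3. In those 3 libraries, 28.3% to 30.7% of gene counts from 1 to 20 were odd numbers, against 15.2% to 26.1% in the other 6 CD4 libraries. The part of that difference in how reads were counted was not tested.

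Likeness over libraries was measured for both copies as for Ccnb1ip1. Among the genes most like Gm5148 were Rps18-ps6 (r = 0.95 in CD8 and 0.94 in CD4 libraries) and Rps20 (0.92 in both). Those most like Rps18-ps6 were Gm5148, Rps7 (0.87 in both) and Rps25 (0.86 and 0.91). With the parent genes, Gm5148 and Rps23 had r = 0.96 in CD8 and 0.78 in CD4 libraries, and Rps18-ps6 and Rps18 had 0.86 and 0.63. Of 32 small-subunit ribosomal protein genes tested, 0 were called between Cd4CreTet2KO and Tet2fl/fl CD4 cells by edgeR, 3 had an unadjusted p under 0.05, and DESeq2 and limma called 0. Their median log2 difference was -0.18, beside 0.00 for all genes.

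Between Vav1CreTet2KO and Cd4CreTet2KO CD4 cells, 1 of the 32 was called by edgeR, Rps29, with a log2 difference of 2.15 (SE 0.34, adjusted p = 0.039). The call of Rps29 was lost with limma, in a fit of the compared genotypes alone, and without Vav1CreTet2KO replicate 2 or any 1 of the 3 Cd4CreTet2KO libraries, with adjusted p-values up to 0.258. DESeq2 called 17 and limma 0. The median of the list was 1.11, beside -0.19 for all genes. Between Vav1CreTet2KO and Tet2fl/fl cells the medians were 0.79 in CD8 cells, beside -0.11, and 0.81 in CD4 cells, beside -0.16. There 0 of the 32 were called in either cell type, 19 had an unadjusted p under 0.05 in each, and DESeq2 called 9 in CD4 cells. In CD8 cells the list's median was 0.14 between Cd4CreTet2KO and Tet2fl/fl and 0.56 between Vav1CreTet2KO and Cd4CreTet2KO, with 0 called by limma or by edgeR, and 0 and 10 at an unadjusted p under 0.05.

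Gm45234 was listed at 0 in all 7 Cd4CreTet2KO libraries and was uneven elsewhere. CD4 cells had 0, 6.87 and 10.98 RPKM in Vav1CreTet2KO mice, 0, 0 and 0 RPKM in Cd4CreTet2KO mice, and 21.7, 6.56 and 14.5 RPKM in Tet2fl/fl mice. CD8 cells had 0, 4.62 and 0 RPKM in Vav1CreTet2KO mice, 0 RPKM in each of the 4 Cd4CreTet2KO libraries, and 2.10, 5.54 and 0 RPKM in Tet2fl/fl mice. Within Vav1CreTet2KO and CD8 Tet2fl/fl groups, libraries at 0 stood beside libraries with 155 to 923 reads. A count of 0 allows up to 0.0181, 0.0150 and 0.0175 RPKM in the CD4 Cd4CreTet2KO libraries, taking 3 reads as the limit, which covers counting error only.

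Atn1, whose exons make up most of Gm45234, was present throughout. In CD8 cells Atn1 averaged 16.5 RPKM in Vav1CreTet2KO, 15.8 RPKM in Cd4CreTet2KO and 15.3 RPKM in Tet2fl/fl mice, and the limma log2 differences from Tet2fl/fl were 0.10 (SE 0.22, adjusted p = 0.845) and 0.03 (SE 0.21, adjusted p = 0.97). In CD4 cells it had 9.25, 2.06 and 14.8 RPKM in Vav1CreTet2KO mice, 16.996, 22.6 and 18.7 RPKM in Cd4CreTet2KO mice, and 7.67, 19.2 and 18.5 RPKM in Tet2fl/fl mice. The CD4 library with the lowest Atn1, Vav1CreTet2KO replicate 2, had 6.87 RPKM of Gm45234 and the highest Grcc10, at 165.1 RPKM, against 22.3 to 36.5 RPKM in the other 8 CD4 libraries. Atn1 and Gm45234 correlated at -0.17 in CD8 and -0.31 in CD4 libraries. Of the 50-base words of Gm45234, 96.1% occur in these neighbours, so reads of the read-through and of the separate genes can be told apart over few bases.

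Gm42733 was measured in CD4 Tet2fl/fl cells and hardly elsewhere. CD4 cells had 0, 0 and 1.199 RPKM in Vav1CreTet2KO mice, 0, 0 and 0 RPKM in Cd4CreTet2KO mice, and 3.14, 4.21 and 3.79 RPKM in Tet2fl/fl mice. These 3 control values rested on 32, 74 and 76 reads. In CD8 cells 8 of 10 libraries were at 0, and Cd4CreTet2KO replicate 2 had 0.718 RPKM from 22 reads and Tet2fl/fl replicate 1 had 0.228 RPKM from 2 reads. Control cells of the same mice thus had Gm42733 reads in CD4 and next to none in CD8 libraries. A count of 0 allows up to 3.13 RPKM in the shallow CD4 Vav1CreTet2KO replicate 1, just under the lowest control value of 3.14 RPKM, so the 0 in that library sets it apart from the controls only narrowly.

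**Figure D4:**
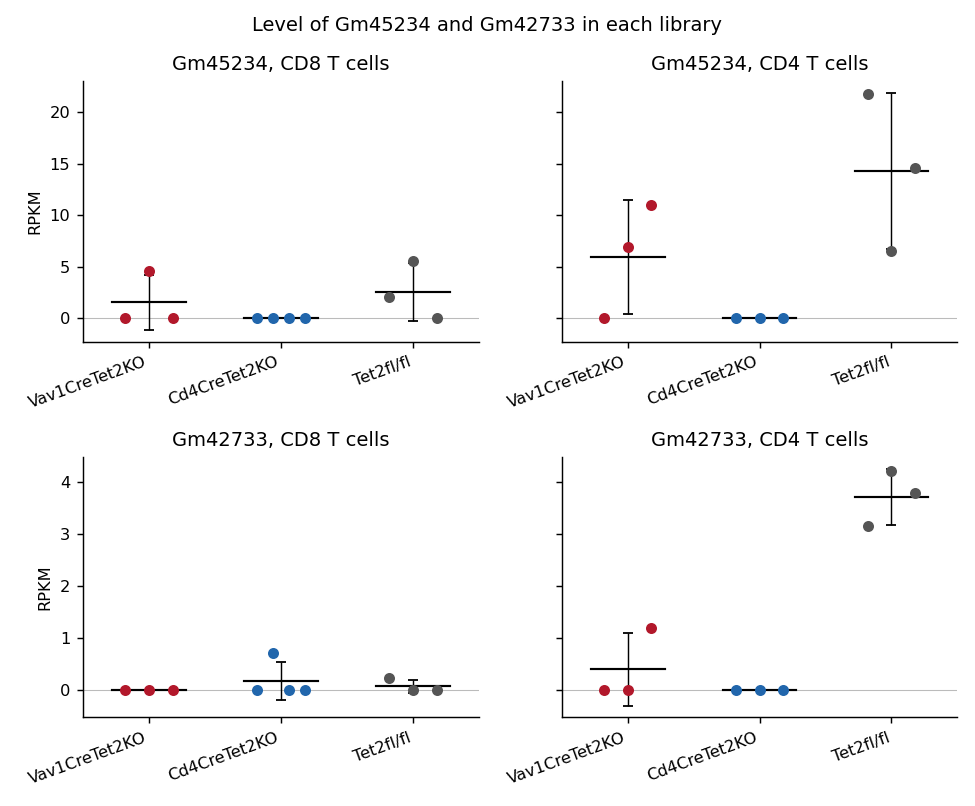
RPKM of Gm45234 (top) and Gm42733 (bottom) in CD8 libraries (left) and CD4 libraries (right), on linear axes, with 1 point per library, a bar at the mean and whiskers of 1 SD. All Cd4CreTet2KO libraries of Gm45234 lie at 0, and the CD4 Tet2fl/fl libraries of Gm42733 lie between 3.14 and 4.21 RPKM.

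Ociad1, which contains Gm42733 on the other strand, had 0.938, 5.20 and 8.86 RPKM in CD4 Vav1CreTet2KO libraries, 6.51, 5.72 and 7.32 RPKM in CD4 Cd4CreTet2KO libraries, and 10.5, 9.82 and 8.75 RPKM in CD4 Tet2fl/fl libraries. Its edgeR log2 difference between Cd4CreTet2KO and Tet2fl/fl was -0.47 (SE 0.56, adjusted p = 1.00). In CD8 cells it ranged from 7.30 to 13.7 RPKM over all libraries. Gm45234 and Gm42733 correlated at 0.80 over 9 CD4 and at -0.10 over 10 CD8 libraries, which share animals and depth. The genes most like Gm45234 were Apol7e (r = 0.88 in CD8 and 0.91 in CD4 libraries), Wipf1 (0.71 and 0.83) and Nprl3 (0.73 and 0.70). Those most like Gm42733, Etfbkmt (0.61 and 0.59), Patz1 (0.57 and 0.70) and Gcfc2 (0.54 and 0.52), were less close, and with 8 CD8 libraries at 0 these values rest on few reads.

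Of the 5 genes, 3 had every CD8 Vav1CreTet2KO library above every Tet2fl/fl library, where 6.92% of 10224 tested genes were higher without overlap, 12.9% lower and 19.9% either. Between CD8 Cd4CreTet2KO and Tet2fl/fl libraries 1 of the 5 was higher without overlap, against 3.85% of tested genes higher, 14% lower and 17.8% either. Between CD8 Vav1CreTet2KO and Cd4CreTet2KO libraries 1 of the 5 was higher, against 2.07% higher, 2.46% lower and 4.53% either. In CD4 cells, 3 were higher and 1 lower between Vav1CreTet2KO and Tet2fl/fl, against 3.19%, 12.5% and 15.7% of 13554 tested genes higher, lower and either. Between CD4 Cd4CreTet2KO and Tet2fl/fl libraries, 1 was higher and 4 lower, against 5.83%, 7.93% and 13.8%. Between CD4 Vav1CreTet2KO and Cd4CreTet2KO libraries, 3 were higher, against 4.14%, 15.3% and 19.5%. In both cell types at once, Ccnb1ip1, Gm5148 and Rps18-ps6 were higher in Vav1CreTet2KO than in Tet2fl/fl libraries, as were 0.82% of 10117 genes, with 4.46% in the same direction either way. Ccnb1ip1 was also higher in both cell types in Cd4CreTet2KO than in Tet2fl/fl libraries (0.217% higher, 1.89% either way) and in Vav1CreTet2KO than in Cd4CreTet2KO libraries (0.227% higher, 0.83% either way). The filter on low values was passed by 4 of the 5 genes in CD8 cells, without Gm42733, and by 5 in CD4 cells. The genes were picked for such gaps, and the comparisons share libraries, so nothing is read from these counts.

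A shift of 4-fold or more present in both cell types was found for 0 of 25639 genes in each of the 3 pairs of genotypes (0%), with every library of one genotype at least 4 times every library of the other and at least 1 RPKM in the higher group. Leaving out any 1 of the 6 animals gave 2 to 11 genes for Vav1CreTet2KO against Tet2fl/fl, and leaving out 1 animal gave 0 to 1 for Cd4CreTet2KO against Tet2fl/fl and 0 to 6 for Vav1CreTet2KO against Cd4CreTet2KO. Ccnb1ip1 met a limit of 2-fold between Vav1CreTet2KO and Tet2fl/fl, with 24 other genes, and neither limit in the other pairs. Against all other CD4 libraries, 3 genes lay at least 4-fold apart in Cd4CreTet2KO (0.0117%), a scan chosen after the values were seen. Gm5148 and Rps18-ps6 were the low ones, and the high one was Gh, the growth hormone gene of the pituitary. Gh had 37.2, 50.7 and 48.5 RPKM in the CD4 Cd4CreTet2KO libraries and was at 0 in the other 6 CD4 libraries. In CD8 Cd4CreTet2KO libraries it had 0.626, 0.0589, 0 and 0 RPKM, and the 2 animals sequenced in both cell types were those at 0 in CD8 cells. The same 3 libraries thus stood apart in the near loss of both copies and in a transcript seen in no other CD4 library.

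Genes around the 5 were called about as rarely as all tested genes, so nothing is read from their counts about these loci. Within 1 Mb of one of the 5, the tables held 206 other genes, of which 71 were tested in CD8 and 99 in CD4 cells. Of these, 1 was called in CD8 cells between Vav1CreTet2KO and Tet2fl/fl, where 1.45% of all tested genes were called. It was Rnase6, a secreted antimicrobial ribonuclease, centred 330 kb from Ccnb1ip1. Rnase6 had 32.5, 19.1 and 9.59 RPKM in CD8 Vav1CreTet2KO libraries and 1.46, 0.227 and 1.24 RPKM in CD8 Tet2fl/fl libraries, a limma log2 difference of 3.35 (SE 0.65, adjusted p = 0.0271). The call was lost with edgeR on recovered reads, with no filter, and when any 1 of the 6 libraries compared was left out other than Vav1CreTet2KO replicate 3, with adjusted p-values up to 0.115. Rnase6 had 35.8, 10.7, 4.59 and 4.19 RPKM in CD8 Cd4CreTet2KO libraries, highest in the library with the highest macrophage and the highest dendritic cell marker sum of that group. In the called comparison the dendritic cell marker sums ran from 318 to 1299 RPKM in Vav1CreTet2KO and from 15.1 to 128 RPKM in Tet2fl/fl libraries, without overlap, as Rnase6 did. The macrophage sums there overlapped, at 4.23 to 10.6 RPKM and 3.02 to 12.4 RPKM in the same order. The part of other cells in the level of Rnase6 was not tested.

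In the other comparisons 0 neighbours were called by limma (CD8) or edgeR (CD4), where the calls over all tested genes were 0.509% in CD8 Cd4CreTet2KO against Tet2fl/fl, 0% in CD8 Vav1CreTet2KO against Cd4CreTet2KO (0 by limma and by edgeR on recovered reads, with 647 genes at an unadjusted p under 0.05), and 0.00738%, 0.0295% and 0.0664% in the CD4 comparisons of Vav1CreTet2KO with Tet2fl/fl, Cd4CreTet2KO with Tet2fl/fl and Vav1CreTet2KO with Cd4CreTet2KO. Unadjusted p-values under 0.05 numbered 6 and 4 of 71 in those CD8 comparisons and 13, 2 and 7 of 99 in the CD4 comparisons. DESeq2 called 1, 0 and 2 neighbours in these CD4 comparisons, limma 0 in each, and edgeR on recovered reads 0 in CD8 cells. The median log2 difference of the neighbours between Cd4CreTet2KO and Tet2fl/fl was -0.01 in CD4 cells, beside 0.00 for all genes, and -0.16 in CD8 cells, beside -0.15.

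**Figure D5:**
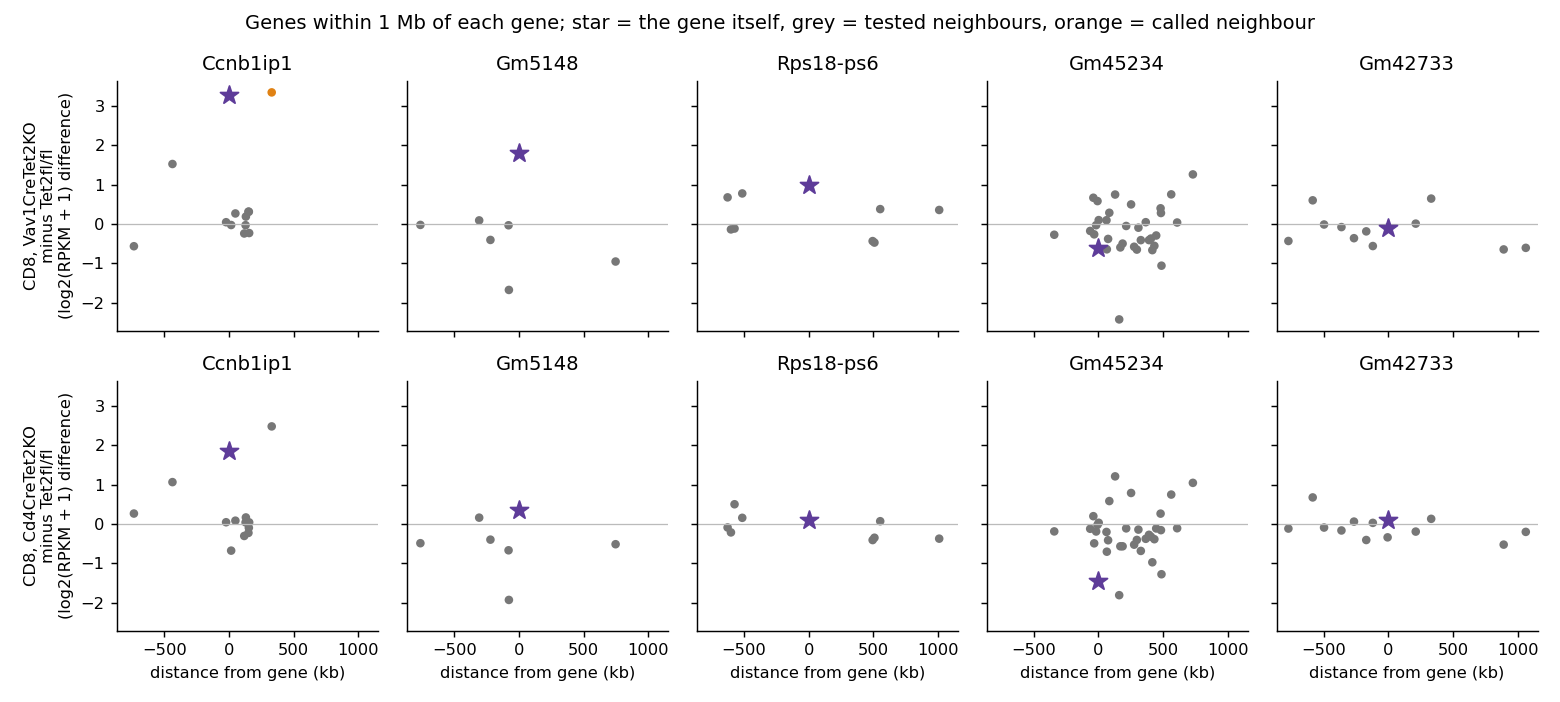
log2(RPKM + 1) difference of tested genes within 1 Mb of each member against their distance in kb, centre to centre, in CD8 cells, for Vav1CreTet2KO minus Tet2fl/fl (top) and Cd4CreTet2KO minus Tet2fl/fl (bottom). Stars are the 5 genes, grey points their neighbours and the orange point Rnase6, the 1 called neighbour, at 3.35.

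None of the nearest tested genes was called in any comparison, where between 0% and 1.45% of all tested genes were called. Parp2, a poly(ADP-ribose) polymerase whose gene begins 109 bases from Ccnb1ip1, differed by -0.02 (SE 0.45) between CD8 Vav1CreTet2KO and Tet2fl/fl cells, with a limma adjusted p of 0.985. Ttc5, 3729 bases away on the other side, differed by 0.05 (SE 0.25, adjusted p = 0.943). In CD4 cells Ttc5 had 0, 0.826 and 3.20 RPKM in Vav1CreTet2KO libraries, 7.87, 5.67 and 4.13 RPKM in Cd4CreTet2KO libraries, and 4.999, 9.01 and 4.72 RPKM in Tet2fl/fl libraries. Its Vav1CreTet2KO libraries lay below all others, opposite in direction to Ccnb1ip1. The edgeR log2 difference between Vav1CreTet2KO and Tet2fl/fl CD4 cells was -1.94 (SE 0.86, adjusted p = 0.401) for Ttc5 and -0.59 (SE 0.93, adjusted p = 0.859) for Parp2. Tep1, a telomerase-associated protein, differed by 0.27 (SE 0.36, limma adjusted p = 0.725) between CD8 Vav1CreTet2KO and Tet2fl/fl cells. Enc1, the nearest tested gene before Rps18-ps6 but 507038 bases away, differed by -0.80 (SE 0.56, edgeR adjusted p = 1.00) between CD4 Cd4CreTet2KO and Tet2fl/fl cells. Gm43820, 66238 bases before Gm5148, differed between the same CD4 cells by 0.75 (SE 2.15, edgeR adjusted p = 1.00). It averaged only 0.180 and 0.117 RPKM there, too low to show the state of that locus. Ptpn6, the phosphatase SHP-1, 475 bases from Gm45234, and Fryl, 51440 bases before Gm42733, differed in that comparison by 0.20 (SE 0.37) and 0.11 (SE 0.28), both with an edgeR adjusted p of 1.00.

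Casp4, an inflammatory caspase known to be altered in some inbred strains, was examined as a mark of strain. In CD8 cells it averaged 0.417 RPKM in Vav1CreTet2KO, 1.57 RPKM in Cd4CreTet2KO and 4.00 RPKM in Tet2fl/fl mice, and it fell between Vav1CreTet2KO and Tet2fl/fl (limma log2 difference -1.82, SE 0.38, adjusted p = 0.0345). In CD4 cells it averaged 6.18, 3.28 and 4.81 RPKM in the same order and was not called, with a log2 difference of 0.45 (SE 0.60, edgeR adjusted p = 0.832) between Vav1CreTet2KO and Tet2fl/fl. The CD8 call was lost in 11 of 12 alternatives, among them the removal of any 1 of the 6 libraries compared, with adjusted p-values up to 0.199. The CD4 cells came from the same 3 Vav1CreTet2KO mice, and the difference between the cell types was not tested.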

How the data were processed

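RNA was sequenced as read pairs from SMARTer stranded total RNA libraries, per the labels' protocols. The authors deposited counts and RPKM for CD4 libraries and RPKM alone for CD8 libraries, per the file headers. Per the submitters' processing notes, the builds were GRCm38 and mm10. The aligner and counter were not given in the sources used here. From the CD8 RPKM, whole reads were recovered for 134905 values, 100% within 0.01 of a whole number, using implied gene lengths. A further 18 columns of per-sample values were not used. CD8 values were tested with limma 3.58.1 on log2(RPKM + 1) for genes with at least 1 RPKM in 3 libraries. CD4 counts were tested with edgeR 4.0.16 quasi-likelihood after filterByExpr, with Benjamini-Hochberg adjustment over all genes tested and all 3 genotypes in each fit. DESeq2 1.42.0 was an alternative. The limma fit in CD8 cells and the edgeR fit in CD4 cells were checked on simulated data for Vav1CreTet2KO against Tet2fl/fl. DESeq2 was not checked in this way. Differences of the 5 genes are of mean log2(RPKM + 1), with SEs from the group SDs. Transcripts of GENCODE vM21 were compared with BLAST+ 2.17.0. Genes named were the 5, Tet2, the parent and overlapping genes, the nearest tested neighbours, the 3 genes most alike and called list members. Markers of cell type and of sex were listed apart from these. Casp4 was in a list of genes known to differ between strains. Nnt, also in that list, gave no values. Rnf212, Sycp1, Msh4, Ccnb1, C330021F23Rik, Gh and the 5 RefSeq pseudogenes named at the end fall outside that rule and were chosen after their values were seen. The 5 genes and the lists were chosen with earlier results of these data known. Replicates are separate animals. Equal replicate numbers are different animals across genotypes. Some genes that this rule names are not reported here.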

Additional observations from a re-analysis of the deposited data

Results flagged for a closer look

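In the CD8 Cd4CreTet2KO group of 4 libraries, Rps23 had 1042 RPKM in replicate 3, far from the other 3, which lay between 584.4 and 657.2 RPKM. In the same group Gm42733 had 0.718 RPKM in replicate 2 and 0 RPKM in the other 3. A gap test between the farthest library and the rest set both apart, among 9 genes screened in this group. Chance sets apart about 1 in 20 groups.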

How the results depend on the processing

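The levels of the 5 genes and of Rps18, Rps23, Atn1 and Ociad1 were recomputed under each alternative, as were Rnase6, Casp4 and Rps29. No difference that was called, or that exceeded the spread between replicates, changed sign. Of these log2 differences, 571 moved by less than 1 SD or stayed on their side of the threshold, 60 moved by more, 6 of Rps23 passed the threshold as alternatives, and 24 of Rnase6, Casp4 and Rps29 lost it. The members without overlap between CD8 Vav1CreTet2KO and Cd4CreTet2KO numbered 0 in place of 1, which was Ccnb1ip1, with RPKM over size factors. Leaving out 1 library gave 1 to 2 there (2 without Vav1CreTet2KO replicate 3 or Cd4CreTet2KO replicate 3) and 1 to 2 between CD8 Cd4CreTet2KO and Tet2fl/fl (2 without Tet2fl/fl replicate 3). The other counts of members without overlap stayed within 1.5 times.

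The replicate numbers do not pair the samples, which are different animals: deviations of equal numbers correlated between -0.0758 and 0.0651 in CD8 and between -0.0974 and 0.0977 in CD4 libraries. With a replicate block, genes called numbered 90 in place of 148 (CD8 Vav1CreTet2KO minus Tet2fl/fl), 0 in place of 52 (CD8 Cd4CreTet2KO minus Tet2fl/fl) and 3 in place of 1 (CD4 Vav1CreTet2KO minus Tet2fl/fl).

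Genes called over all genes, which serve as background only, moved by more than 1.5 times as follows. In CD8 Vav1CreTet2KO minus Tet2fl/fl they numbered 92 with only the compared genotypes in the fit, 48 with no filter, 88 with a pseudocount of 0.1, 91 with edgeR on recovered reads, and 0 to 211 leaving out 1 library (62 without Vav1CreTet2KO replicate 1, and 0, 42 and 61 when the controls numbered 1, 2 and 3 were dropped in turn). In CD8 Cd4CreTet2KO minus Tet2fl/fl they numbered 262, 3 and 12 under the first 3 of these, and 0 to 157 leaving out 1 library (157 without Vav1CreTet2KO replicate 1). In CD8 Vav1CreTet2KO minus Cd4CreTet2KO the count was 2 in place of 0 with only the compared genotypes, and 0 to 1 leaving out 1 library. In CD4 Vav1CreTet2KO minus Tet2fl/fl it was 2 with only the compared genotypes, 383 with no filter, 0 with limma, 455 with DESeq2 and 0 to 819 leaving out 1 library (819 without Vav1CreTet2KO replicate 3). In CD4 Cd4CreTet2KO minus Tet2fl/fl it was 8, 37, 2 and 26 in place of 4 in the same order, and 0 to 4 leaving out 1 library. In CD4 Vav1CreTet2KO minus Cd4CreTet2KO it was 3, 403, 4 and 412 in place of 9, and 2 to 719 leaving out 1 library (719 without Vav1CreTet2KO replicate 3). The cause was not tested.

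Neighbours called in CD8 Vav1CreTet2KO minus Tet2fl/fl numbered 0 with no filter, with edgeR on recovered reads and within 0.25 Mb, 2 with RPKM over size factors, 8 within 5 Mb, and 0 to 2 leaving out 1 library. In CD8 Cd4CreTet2KO minus Tet2fl/fl they numbered 4 with only the compared genotypes, 1 within 5 Mb and 0 to 2 leaving out 1 library. In CD4 Vav1CreTet2KO minus Tet2fl/fl they numbered 1 with DESeq2 and 0 to 8 leaving out 1 library, and in CD4 Vav1CreTet2KO minus Cd4CreTet2KO 3 with no filter, 2 with DESeq2 and 0 to 5 leaving out 1 library. The highest CD4 values were without Vav1CreTet2KO replicate 3. Genes apart in both cell types numbered 25, 2 and 2 at 2-fold for Vav1CreTet2KO against Tet2fl/fl, Cd4CreTet2KO against Tet2fl/fl and Vav1CreTet2KO against Cd4CreTet2KO. At 0.3 RPKM they numbered 2 and 1 in the first and second of these, and leaving out 1 animal gave 2 to 11, 0 to 1 and 0 to 6. The scan of CD4 Cd4CreTet2KO against the other CD4 libraries, added after seeing the data, gave 6 genes at 2-fold, 10 at 0.3 RPKM and 3 to 12 leaving out 1 library (12 without Cd4CreTet2KO replicate 2). Depth limits Gm42733 and all values of CD4 Vav1CreTet2KO replicate 1. In CD8 Vav1CreTet2KO replicate 1, 50.6% of counts from 1 to 20 were odd numbers, against 13.1% to 25.3% in the other CD8 libraries; its part in the high values there was not tested.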

Other observations

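Some other genes that RefSeq types as pseudogenes were also low in CD4 Cd4CreTet2KO libraries. Of 27 genes typed as pseudogenes by RefSeq with at least 1 RPKM in 3 CD4 libraries, 5 had every Cd4CreTet2KO library below every other CD4 library (18.5%), and 102 of all 9990 genes at that level did (1.02%). The 5 were Rps18-ps6, Rps18-ps5, Rpl9-ps6, Gm2000 and Ftl1-ps1. In the rest of the 27 the Cd4CreTet2KO libraries overlapped with the other CD4 libraries, and 0 of the 27 had them all above. Rpl9-ps6, a copy of a large-subunit ribosomal protein gene, ranged from 3.10 to 8.87 RPKM in CD4 Cd4CreTet2KO libraries and from 9.38 to 76.0 RPKM in the other CD4 libraries. Rps18-ps5 ranged from 0.287 to 0.476 RPKM and from 0.588 to 2.65 RPKM, and Ftl1-ps1, a copy of the ferritin light chain gene, from 0.146 to 0.881 RPKM and from 1.27 to 3.09 RPKM. In CD8 cells, Rpl9-ps6 ranged from 16.6 to 40.3 RPKM in Cd4CreTet2KO libraries and from 7.94 to 20.8 RPKM in Tet2fl/fl libraries. Rps18-ps5 and Ftl1-ps1 were under 1 RPKM in every CD4 Cd4CreTet2KO library, so they passed the level through the other CD4 libraries alone. This class was chosen after the values were seen and includes Rps18-ps6, so no test was made and nothing is read from these shares.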
